A study of Mus musculus with 25 samples.

Results

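The 6 genes Gpr83, Swap70, Ecm1, Folr4, Coro2a and Rln3 stand far higher in regulatory T cells (Treg) than in conventional T cells (Tconv) and are less often discussed there than Foxp3 or Il2ra. Their levels were followed through mouse T cells that lack subunits of the transcription factor NF-kB. They were picked by symbol, 6 of the 22985 gene symbols kept, because their levels in WT Treg exceed those in WT Tconv, so that difference is described here and not tested. RNA was sequenced in 25 libraries of T cells from spleen and lymph node of C57BL/6 mice. At rest there were 2 libraries of DKO Treg (genotype p65 c-Rel DKO), 2 of c-RelKO Treg, 3 of p65KO Treg, 4 of WT Treg and 2 of WT Tconv. Stimulated for 3 h with antibodies to CD3 and CD28 at 2 μg/ml, with IL-2 present, there were 2 of DKO Treg, 1 of c-RelKO Treg, 1 of p65KO Treg, 2 of WT Treg and 2 of WT Tconv. A separate stimulated set, 4 libraries treated with TAT-Cre or serving as controls without deletion, held 1 Treg library labelled NFkB del, 1 Treg library labelled FoxP3 del, 1 WT Treg control and 1 WT Tconv control. Antibody was at 2 μg/ml in that set too, and its stimulation time is not given. The Cre driver, the cells in which the alleles were deleted, the sort markers, the age of the mice and whether replicates came from separate animals are not stated there.

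Treg restrain immune responses and depend on the transcription factor Foxp3, which holds their expression program in place. NF-kB is a family of dimers that carry signals from the T cell receptor and costimulatory receptors to the nucleus, and its subunits p65 (gene Rela) and c-Rel (gene Rel) have activation domains. c-Rel is known for its part in switching on Foxp3 while Treg develop in the thymus.

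The 6 genes have unrelated products. Gpr83 encodes an orphan-type G protein-coupled receptor of the cell surface. Folr4 encodes a protein of the folate receptor family that is also called Izumo1r or Juno, the egg's receptor for sperm Izumo1. Swap70 encodes a signalling protein that binds phosphoinositides, Rac and actin and is best known from B cells. Coro2a encodes a coronin, an actin-binding protein with a WD-repeat propeller that is also a component of the NCoR corepressor complex. Ecm1 encodes a secreted glycoprotein of the extracellular matrix. Rln3 encodes relaxin-3, a peptide hormone of the insulin and relaxin family that is best known as a neuropeptide.

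Levels are FPKM, fragments per kilobase of transcript scaled to the mapped fragments of the library, as deposited. Tests used limma on log2(FPKM + 1), fitted to the 11532 genes that reached 1 FPKM in 2 or more of the 21 libraries outside the TAT-Cre set; a gene is called at a Benjamini-Hochberg adjusted p under 0.05. Differences are log2 differences with their standard error, and all 6 genes passed the filter. In bulk samples fewer cells expressing a gene and less RNA per cell cannot be told apart.

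On the mm9 build, in the files' coordinates, Gpr83 (chr9:14664698-14673943) and Folr4 (chr9:14690258-14708395) are neighbours 16314 bases apart, on opposite strands that run towards each other. Coro2a lies at chr4:46549809-46614801, Swap70 at chr7:117365217-117427020, Ecm1 at chr3:95538071-95543492 and Rln3 at chr8:86566966-86568878. None of the 6 overlapped another listed gene, although Ecm1 lies 404 bases from Tars2 and Rln3 491 bases from Il27ra. Il27ra, the gene beside Rln3, was at 68.6 and 82.6 FPKM in the WT Tconv libraries, where Rln3 was near 0.

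Promoter windows from RefSeq (GRCm38.p6) run from 250 bases before to 50 bases after each annotated start, and all 6 genes matched an entry, Folr4 as Izumo1r and Coro2a with 2 windows. Windows are shown for the 4 genes that were lower in stimulated DKO Treg. Capitals mark a match to TATAAA, the TATA box, or to TGTTTAC, the core of forkhead motifs, both searched on both strands and all found on the gene's own strand; no matches overlap. Gpr83 lies on the + strand at chr9:14859960-14860259, Swap70 on the + strand at chr7:110221453-110221752, Ecm1 on the - strand at chr3:95739520-95739819 and Folr4 on the - strand at chr9:14903718-14904017.
Gpr83: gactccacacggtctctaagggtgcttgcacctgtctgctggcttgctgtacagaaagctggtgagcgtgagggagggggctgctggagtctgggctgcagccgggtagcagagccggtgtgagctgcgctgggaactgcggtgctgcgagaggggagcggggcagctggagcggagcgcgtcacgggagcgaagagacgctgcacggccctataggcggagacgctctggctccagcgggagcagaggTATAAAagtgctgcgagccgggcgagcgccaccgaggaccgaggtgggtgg
Swap70: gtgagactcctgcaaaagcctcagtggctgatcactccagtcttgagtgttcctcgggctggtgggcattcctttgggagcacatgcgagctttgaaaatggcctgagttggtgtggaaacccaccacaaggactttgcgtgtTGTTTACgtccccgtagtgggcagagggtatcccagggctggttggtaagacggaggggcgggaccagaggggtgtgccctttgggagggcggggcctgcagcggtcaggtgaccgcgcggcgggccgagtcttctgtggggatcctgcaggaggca
Ecm1: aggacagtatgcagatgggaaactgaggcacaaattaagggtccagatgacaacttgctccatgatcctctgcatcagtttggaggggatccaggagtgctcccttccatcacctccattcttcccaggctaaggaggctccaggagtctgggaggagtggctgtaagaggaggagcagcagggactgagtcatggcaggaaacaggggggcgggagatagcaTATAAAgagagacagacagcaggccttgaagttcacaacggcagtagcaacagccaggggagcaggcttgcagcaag
Folr4: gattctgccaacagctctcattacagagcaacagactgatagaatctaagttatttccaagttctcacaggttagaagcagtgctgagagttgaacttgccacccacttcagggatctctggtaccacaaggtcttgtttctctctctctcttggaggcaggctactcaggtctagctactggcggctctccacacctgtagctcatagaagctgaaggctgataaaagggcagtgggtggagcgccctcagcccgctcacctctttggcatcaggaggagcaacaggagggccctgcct
TGTTTAC was found in the Swap70 window alone among the 7 windows of the 6 genes, starting at position -107 from the annotated start, and 3.65% of 32851 windows of the same length hold it. TATAAA was found in the windows of Gpr83 (from -1), Ecm1 (from -27) and Rln3 (from -40), against 13.6% of all windows. The kappa-B motif, searched on both strands, was found in none of the 7 windows, against 8.46% of all windows. These matches describe letters in a short window and say nothing of binding.

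Libraries fall into 4 runs by the numbers in their labels, which do not call them batches. Run 1 holds WT Treg and p65KO Treg replicates 1, run 2 their replicates 2, run 3 has 1 library each of 7 groups and run 4 has 1 library of each of the 10 groups. Implied depth was 15.97 to 52.8 M fragments in the 21 libraries and 15.4 to 19.4 M fragments in the TAT-Cre set. Rel was at 1.96 and 2.06 FPKM in DKO Treg and 1.76 and 2.09 FPKM in c-RelKO Treg, against 27.5 to 271 FPKM in WT Treg. Rela was at 56.3 and 76.1 FPKM in DKO Treg and 58.0 to 79.8 FPKM in p65KO Treg, against 64.9 to 130 FPKM in WT Treg, and these ranges overlap; the deleted part of Rela is not given, so a level per gene does not check those labels. 3 libraries stand apart: in run 1 Rel was at 24.6 FPKM in p65KO Treg and 27.5 FPKM in WT Treg, and c-RelKO Treg replicate 2 held 13324 FPKM of the haemoglobin gene Hba-a1 and 78.0 FPKM of the B cell gene Cd79a. Results that rest on them are given with and without them, an alternative chosen after seeing the data.

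In WT cells every Treg library was above every Tconv library for each of the 6 genes, as the choice of the genes requires. Ecm1 and Folr4 were the most abundant in resting WT Treg, with means of 403 ± 352 and 336 ± 150 FPKM (SD, n = 4), against 27.3 ± 2.0 and 26.6 ± 0.19 FPKM in WT Tconv (SD, n = 2). Gpr83 averaged 84.7 ± 49.3 FPKM in WT Treg and 0.49 ± 0.15 FPKM in WT Tconv. For Swap70 the means were 71.9 ± 42.0 FPKM in WT Treg and 3.55 ± 0.27 FPKM in WT Tconv. Coro2a stood at 53.3 ± 25.3 FPKM in WT Treg and 1.48 ± 0.39 FPKM in WT Tconv. Rln3 was the least abundant, at 23.8 ± 20.2 FPKM in WT Treg against 0.27 ± 0.086 FPKM in WT Tconv, where its levels rest on 1 and 5 implied fragments. The spread within WT Treg was wide for all 6.

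That spread followed the runs. Gpr83, Swap70 and Ecm1 were low in WT Treg replicates 1 and 2 and high in replicates 3 and 4, while Folr4, Coro2a and Rln3 did the opposite. Ecm1 stood at 85.0 and 140.5 FPKM in replicates 1 and 2 and at 564 and 822 FPKM in replicates 3 and 4. Rln3 stood at 43.9 and 38.5 FPKM in replicates 1 and 2 and at 4.98 and 8.03 FPKM in replicates 3 and 4. The summed level of 7 T cell markers was 2911 and 2209 FPKM in replicates 1 and 2, against 1292 and 1176 FPKM in replicates 3 and 4, and its part in this split was not tested. Values within runs, or from a fit with run as a block, are therefore given beside pooled values.

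**Figure D1:**
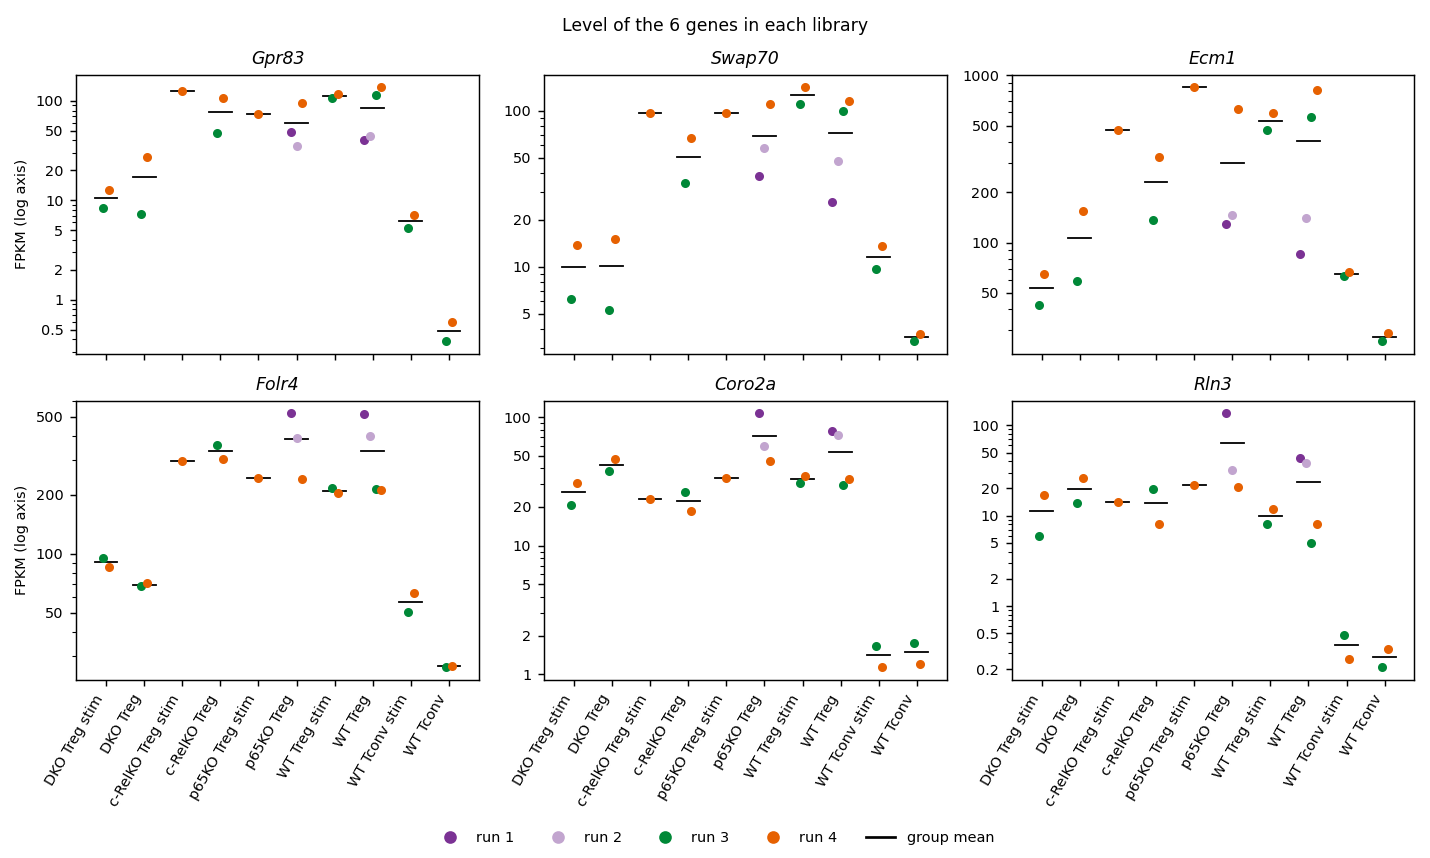
Level of each of the 6 genes in FPKM (log axis) in the 21 libraries outside the TAT-Cre set, by group, with points coloured by run and a bar at the group mean. Gpr83, Swap70 and Folr4 are low in DKO Treg and lowest in resting WT Tconv. Ecm1 is also lowest in resting WT Tconv, and its resting DKO Treg libraries overlap WT Treg. Coro2a and Rln3 are low in WT Tconv but not in DKO Treg.

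Ordered by group mean from high to low, the genotypes took different places for each gene, where a group of 1 library has no spread. For Gpr83 the order was c-RelKO Treg stim, WT Treg stim, WT Treg, c-RelKO Treg, p65KO Treg stim, p65KO Treg, DKO Treg, DKO Treg stim, WT Tconv stim and WT Tconv, and the libraries of neighbours in that order overlapped except for c-RelKO Treg stim and WT Treg stim, p65KO Treg and DKO Treg, DKO Treg stim and WT Tconv stim, and WT Tconv stim and WT Tconv. Swap70 ran from WT Treg stim through p65KO Treg stim, c-RelKO Treg stim, WT Treg, p65KO Treg, c-RelKO Treg, WT Tconv stim, DKO Treg and DKO Treg stim to WT Tconv. Its neighbours overlapped from c-RelKO Treg stim to c-RelKO Treg and from WT Tconv stim to DKO Treg stim, and not elsewhere.

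Ecm1 ran from p65KO Treg stim through WT Treg stim, c-RelKO Treg stim, WT Treg, p65KO Treg, c-RelKO Treg, DKO Treg, WT Tconv stim and DKO Treg stim to WT Tconv, and its neighbours overlapped except at the 2 ends of that order. Folr4 ran from p65KO Treg through WT Treg, c-RelKO Treg, c-RelKO Treg stim, p65KO Treg stim, WT Treg stim, DKO Treg stim, DKO Treg and WT Tconv stim to WT Tconv, and its neighbours overlapped only among the first 3. Coro2a ran from p65KO Treg through WT Treg, DKO Treg, p65KO Treg stim, WT Treg stim, DKO Treg stim, c-RelKO Treg stim, c-RelKO Treg and WT Tconv to WT Tconv stim, with gaps below DKO Treg and above WT Tconv. Rln3 ran from p65KO Treg through WT Treg, p65KO Treg stim, DKO Treg, c-RelKO Treg stim, c-RelKO Treg, DKO Treg stim and WT Treg stim to WT Tconv stim and WT Tconv, and its single gap lay between the Treg and the Tconv groups.

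Loss of both subunits lowered 3 of the 6 genes in resting Treg, Gpr83, Swap70 and Folr4, while 33% of all genes tested were called in DKO Treg against WT Treg and 13.6% were called lower. Gpr83 was at 7.33 and 27.1 FPKM in DKO Treg, against 40.8, 44.6, 116 and 137 FPKM in WT Treg. Both DKO libraries were below all 4 WT libraries, whose high levels also entered the choice of the genes. That choice favours negative differences from WT Treg for all 6 genes, and the tests against WT Treg carry this limit. The difference of Gpr83 was -2.29 ± 0.57 (limma, adjusted p = 0.00751). Within run 3 the DKO library held 0.0633 of the level of its WT partner and within run 4 it held 0.197.

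Swap70 was at 5.30 and 15.05 FPKM in DKO Treg, against 25.9, 47.5, 99.1 and 115 FPKM in WT Treg, again without overlap. The difference was -2.63 ± 0.58 (adjusted p = 0.00337), and the DKO libraries held 0.0535 and 0.131 of their WT partners in runs 3 and 4. Because Swap70 is also a B cell gene, B cell markers are given beside it: 10 of 10 were measured, their summed level was 7.02 and 11.7 FPKM in DKO Treg and 5.87 to 73.5 FPKM in WT Treg, and Cr2 was listed at 0 in the first DKO library. The highest of these sums was in WT Treg replicate 1, 1 of the 3 libraries that stand apart. The part of B cell transcripts in the Swap70 values was not tested.

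Folr4 was at 68.1 and 71.0 FPKM in DKO Treg, against 212 to 517 FPKM in WT Treg. The DKO libraries lie close together and far below the lowest WT library. It fell by 2.14 on the log2 scale, with a standard error of 0.34 (adjusted p = 0.000368), and kept 0.320 and 0.335 of the level of the WT partner in runs 3 and 4.

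Ecm1 did not pass the pooled test. It was at 59.3 and 154 FPKM in DKO Treg, against 85.0, 140.5, 564 and 822 FPKM in WT Treg, so the groups overlap. Its difference was -1.50 ± 0.83 (adjusted p = 0.179). Beside the WT library of the same run, DKO Treg held 0.105 of the level in run 3 and 0.187 in run 4, and with run as a block the difference was -2.67 ± 0.30 (adjusted p = 1.52e-05). Without the 3 libraries that stand apart it was -2.06 (adjusted p = 0.0390), and 46.3% of all genes were then called, 17.8% lower. Leaving out WT Treg replicate 1 alone had the same effect (-2.06).

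Markers of NK and CD8 T cells, 7 of 7 measured, summed to 41.2 and 74.6 FPKM in DKO Treg against 8.90 to 28.8 FPKM in WT Treg, without overlap. Most of that sum was Gzma, which encodes granzyme A, at 26.6 and 57.2 FPKM in DKO Treg against 0.47 to 3.00 FPKM in WT Treg, while Cd8a was at 0.071 and 0.19 FPKM in DKO Treg against 0.15 to 2.77 FPKM in WT Treg. The 5 mast cell and basophil markers summed to 6.84 and 12.1 FPKM in DKO Treg against 0.70 to 3.35 FPKM in WT Treg. That sum was mostly Kit, at 5.33 and 5.95 FPKM in DKO Treg against 0.61 to 1.94 FPKM in WT Treg. Mcpt8 was at 1.31 and 5.70 FPKM in DKO Treg against 0 to 1.18 FPKM in WT Treg. Cpa3 was at 0.21 and 0.30 FPKM, Fcer1a at 0 and 0.050 FPKM and Ms4a2 at 0 and 0.10 FPKM in DKO Treg. As sums, these were not particular to DKO Treg. The NK and CD8 sum was 40.9 and 44.5 FPKM in c-RelKO Treg, also above WT Treg, and 35.0, 16.5 and 13.3 FPKM in p65KO Treg. Its parts differed. Gzma was at 3.96 and 16.4 FPKM in c-RelKO Treg and at 9.59, 2.65 and 2.30 FPKM in p65KO Treg, below both DKO Treg libraries. In c-RelKO Treg replicate 1 Klrb1c (13.1 FPKM) and Klrd1 (10.5 FPKM) were larger parts than Gzma. The mast cell and basophil sum was 4.84 and 11.2 FPKM in c-RelKO Treg and 0.58, 0.66 and 12.7 FPKM in p65KO Treg. The part of these transcripts in the changes of the 6 genes was not tested.

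No fall was called for Coro2a or Rln3. Coro2a was at 37.9 and 46.9 FPKM in DKO Treg, inside the 29.8 to 77.8 FPKM of WT Treg, with a difference of -0.20 ± 0.39 (95% interval -1.05 to 0.64, adjusted p = 0.728). Rln3 was at 13.8 and 26.2 FPKM in DKO Treg, inside the 4.98 to 43.9 FPKM of WT Treg, with a difference of 0.19 ± 0.83 (95% interval -1.59 to 1.97, adjusted p = 0.882). Against the WT library of the same run, Rln3 was 2.77 times as high in DKO Treg of run 3 and 3.26 times as high in DKO Treg of run 4, and the run block gave 1.30 ± 0.50 (adjusted p = 0.0398). The matching ratios of Coro2a were 1.27 and 1.41. With the run block 5 of the 6 genes were called, 4 lower and 1 higher, but 61.2% of all genes were called in that fit, 24.1% lower and 37.1% higher. Without DKO Treg replicate 1 the pooled fit kept 1 call, Folr4, with Gpr83 at -1.41 and Swap70 at -1.96.

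**Figure D2:**
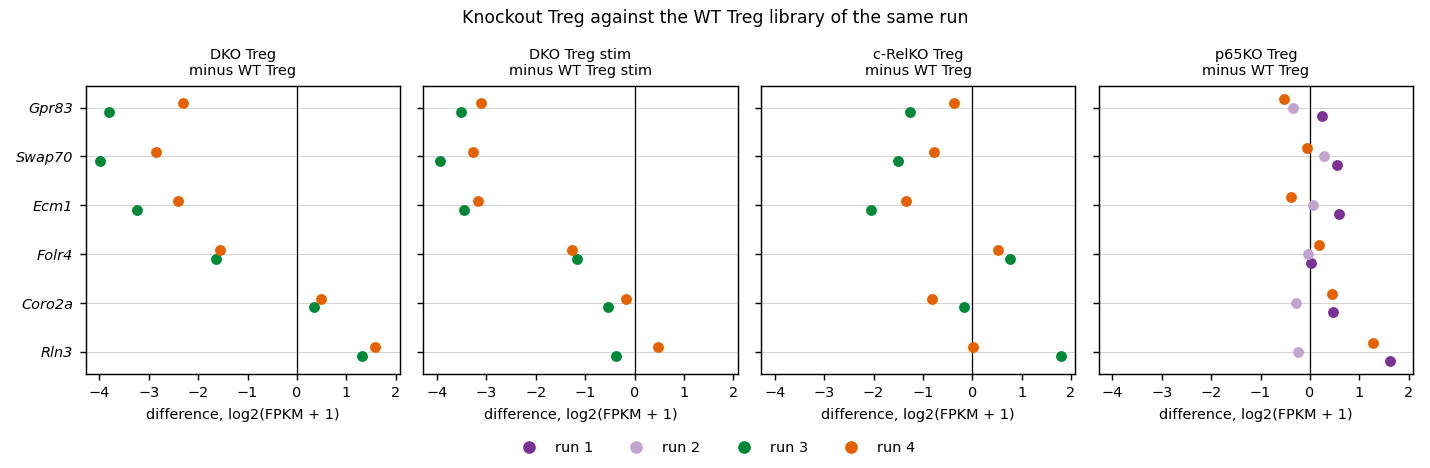
Difference in log2(FPKM + 1) between each knockout Treg library and the WT Treg library of the same run, resting or stimulated, for the 6 genes; each point is 1 pair of libraries, coloured by run. In DKO Treg the points of Gpr83, Swap70, Ecm1 and Folr4 lie left of 0 in both runs, and those of Rln3 lie right of 0 at rest.

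After stimulation 4 of the 6 genes were lower in DKO Treg, where 32.7% of all genes were called and 16.2% were called lower. The choice of genes by high levels in WT Treg may favour negative differences here too. Swap70 had the largest difference, with 6.26 and 13.7 FPKM in stimulated DKO Treg against 110.3 and 141 FPKM in stimulated WT Treg. It fell by 3.61 ± 0.67 (adjusted p = 0.00111). Gpr83 was at 8.45 and 12.6 FPKM in stimulated DKO Treg, against 108 and 116 FPKM in stimulated WT Treg, a difference of -3.31 ± 0.66 (adjusted p = 0.00182). Neither gene's groups overlap.

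Ecm1 was at 42.2 and 65.04 FPKM in stimulated DKO Treg, against 470.0 and 591 FPKM in stimulated WT Treg, a difference of -3.30 ± 0.95 (adjusted p = 0.0167). Folr4 stood at 95.5 and 85.2 FPKM in stimulated DKO Treg, against 215 and 205 FPKM in stimulated WT Treg (-1.21 ± 0.39, adjusted p = 0.0299). Ecm1 and Folr4 showed no overlap either, but both calls were lost whenever 1 of the 4 libraries was left out, so that 2 calls, Gpr83 and Swap70, remained in each case. Coro2a was at 20.9 and 31.01 FPKM in stimulated DKO Treg, against 30.9 and 35.0 FPKM in stimulated WT Treg (-0.36 ± 0.46, 95% interval -1.33 to 0.62, adjusted p = 0.589). Rln3 was at 5.89 and 16.8 FPKM in stimulated DKO Treg, against 7.99 and 11.8 FPKM in stimulated WT Treg (0.05 ± 0.96, 95% interval -2.01 to 2.11, adjusted p = 0.978). For both of these the groups overlap. With run as a block the number of genes called among the 6 was again 4, where 62.7% of all genes were called.

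The distance of DKO Treg from WT Tconv differed between the genes. The WT Tconv libraries are those whose low levels led to the choice of the genes, so the values against them are a description, with no test. Coro2a was at 37.9 and 46.9 FPKM in DKO Treg against 1.75 and 1.20 FPKM in WT Tconv, a difference of 4.13 ± 0.46. Rln3 was at 13.8 and 26.2 FPKM in DKO Treg against 0.21 and 0.33 FPKM in WT Tconv, a difference of 3.98 ± 0.96. For Gpr83, at 7.33 and 27.1 FPKM in DKO Treg against 0.38 and 0.59 FPKM in WT Tconv, it was 3.36 ± 0.66. These 3 genes had the widest gap to Tconv, which is not a measure of the Treg level kept. Within runs 3 and 4 DKO Treg held 0.0633 and 0.197 of the WT Treg level of Gpr83. The matching ratios were 0.320 and 0.335 for Folr4, 1.27 and 1.41 for Coro2a and 2.77 and 3.26 for Rln3.

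The other 3 genes lay nearer to Tconv. Swap70 was at 5.30 and 15.05 FPKM in DKO Treg against 3.36 and 3.73 FPKM in WT Tconv (1.15 ± 0.67). Folr4 was at 68.1 and 71.0 FPKM in DKO Treg against 26.5 and 26.7 FPKM in WT Tconv (1.35 ± 0.39). Ecm1 was at 59.3 and 154 FPKM in DKO Treg against 25.9 and 28.7 FPKM in WT Tconv (1.77 ± 0.95). In none of the 6 genes did DKO Treg and WT Tconv overlap at rest. Within runs 3 and 4 DKO Treg held 1.58 and 4.03 times the Tconv level of Swap70, 2.57 and 2.65 times that of Folr4 and 2.29 and 5.37 times that of Ecm1.

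Stimulated DKO Treg stood above stimulated WT Tconv in Coro2a (3.47 ± 0.46) and Rln3 (3.02 ± 0.96), again as a description. Folr4 was at 95.5 and 85.2 FPKM in stimulated DKO Treg and at 50.5 and 63.1 FPKM in stimulated WT Tconv, without overlap (0.67 ± 0.39). Gpr83 stood at 8.45 and 12.6 FPKM in stimulated DKO Treg and at 5.27 and 7.14 FPKM in stimulated WT Tconv, without overlap too (0.67 ± 0.66). Swap70 was at 6.26 and 13.7 FPKM in stimulated DKO Treg and at 9.63 and 13.6 FPKM in stimulated WT Tconv, and the groups overlap. Ecm1 was at 42.2 and 65.04 FPKM in stimulated DKO Treg and at 63.5 and 66.3 FPKM in stimulated WT Tconv, with overlap and a difference of -0.30 ± 0.95.

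Loss of p65 alone gave no call among the 6, in the limma fit and with run or replicate number as a block. Only 5 of 11532 genes, 0.0434%, were called in p65KO Treg against WT Treg, and none of the 6 reached an unadjusted p under 0.05. With the run block 8.82% of all genes were called. Rln3 showed the largest difference, with 136, 32.3 and 20.9 FPKM in p65KO Treg against 43.9, 38.5, 4.98 and 8.03 FPKM in WT Treg. The groups overlap, and its difference was 1.40 ± 0.73 (95% interval -0.17 to 2.97, adjusted p = 0.569). Within runs the ratio to WT was 3.10 in run 1, 0.839 in run 2 and 2.60 in run 4. Swap70 differed by 0.02 ± 0.51 (95% interval -1.07 to 1.12) and Folr4 by 0.23 ± 0.30 (95% interval -0.41 to 0.88). For Gpr83, Ecm1 and Coro2a the differences were -0.42 ± 0.50, -0.26 ± 0.73 and 0.44 ± 0.35. The myeloid markers, 11 measured of 12, summed to 40.2, 74.8 and 726 FPKM in p65KO Treg against 9.72 to 95.8 FPKM in WT Treg, and their part in these values was not tested.

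Loss of c-Rel alone gave no call in the pooled fit, in which 10.6% of all genes were called in c-RelKO Treg against WT Treg and 1 of the 6 reached an unadjusted p under 0.05. That gene was Coro2a, with 26.4 and 18.5 FPKM in c-RelKO Treg against 77.8, 72.3, 29.8 and 33.3 FPKM in WT Treg. The groups do not overlap, and the difference was -1.10 ± 0.39 (adjusted p = 0.0921). With the run block it was -0.57 ± 0.24 (adjusted p = 0.0702); both c-RelKO libraries come from runs 3 and 4, where the WT libraries had 29.8 and 33.3 FPKM. Without WT Treg replicate 3 it was called, at -1.33.

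The run block changed 3 calls, in a fit that called 41.6% of all genes, 25.9% lower and 15.8% higher. Ecm1 was at 136 and 325 FPKM in c-RelKO Treg of runs 3 and 4, against 564 and 822 FPKM in WT Treg of the same runs, and the blocked difference was -1.54 ± 0.30 (adjusted p = 0.00186). Swap70 was at 34.3 and 66.5 FPKM in c-RelKO Treg against 99.1 and 115 FPKM in those WT libraries (-1.01 ± 0.27, adjusted p = 0.0106). Folr4 went the other way, with 361 and 306 FPKM in c-RelKO Treg against 213 and 212 FPKM in those WT libraries (0.60 ± 0.11, adjusted p = 0.00146). In each of these 3 the libraries of the same runs do not overlap. Pooled over all runs the differences were -0.38 ± 0.83 for Ecm1, -0.35 ± 0.58 for Swap70 and 0.10 ± 0.34 for Folr4, none of them called.

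Markers of other cells were unequal in this comparison. All 10 B cell markers were at or above 1 FPKM in c-RelKO Treg replicate 2, and their summed level was 14.9 and 246 FPKM in c-RelKO Treg against 5.87 to 73.5 FPKM in WT Treg. Of 12 myeloid markers 11 were measured, and they summed to 79.5 and 1623 FPKM in c-RelKO Treg against 9.72 to 95.8 FPKM in WT Treg. The 6 erythroid markers summed to 4.003 and 17722 FPKM in c-RelKO Treg against 3.21 to 518 FPKM in WT Treg. In run 3 these sums were also higher in c-RelKO Treg than in WT Treg, at 14.9 against 5.87 FPKM for B cell and 79.5 against 9.72 FPKM for myeloid markers, and the part of these transcripts in the values was not tested. Within run 3 the c-RelKO library held 0.241 of the WT level of Ecm1, 0.346 of that of Swap70 and 1.70 times that of Folr4.

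DKO Treg were also lower than each single knockout for the same 3 genes. Against p65KO Treg, where 18.3% of all genes were called and 9.54% were called lower, the differences were -2.66 ± 0.61 for Swap70 (adjusted p = 0.00853), -2.38 ± 0.36 for Folr4 (adjusted p = 0.000682) and -1.86 ± 0.60 for Gpr83 (adjusted p = 0.0449). Against c-RelKO Treg, where 25.5% were called and 5.91% were called lower, they were -2.28 ± 0.67 for Swap70 (adjusted p = 0.0244), -2.24 ± 0.39 for Folr4 (adjusted p = 0.00176) and -2.24 ± 0.66 for Gpr83 (adjusted p = 0.0247). The DKO libraries are shared by both comparisons. With run as a block Ecm1 was lower too against p65KO Treg (-2.70 ± 0.33, adjusted p = 8.08e-05), where 46.8% of all genes were called and 20.4% lower. Against c-RelKO Treg the block added Ecm1 (-1.13 ± 0.31, adjusted p = 0.00860) and, in the other direction, Coro2a (0.90 ± 0.25, adjusted p = 0.00816), where 60.3% were called, 17.8% lower and 42.5% higher. Within run 4 DKO Treg held 0.246 of the Ecm1 level of p65KO Treg, and within runs 3 and 4 it held 0.437 and 0.474 of that of c-RelKO Treg and 1.44 and 2.53 times its Coro2a level. Without DKO Treg replicate 1, Folr4 was the 1 call left in each comparison, and so it was against c-RelKO Treg without c-RelKO Treg replicate 2. The Gpr83 call against p65KO Treg was also lost without p65KO Treg replicate 1 (-1.94) or 3 (-1.47).

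Whether the double loss exceeded the sum of the single losses was tested as an interaction of p65 and c-Rel at rest. Folr4 was called (-2.48 ± 0.50, adjusted p = 0.0254), 1 of the 6 genes where 1.91% of all genes were called and 0.806% were called with this sign. Its level was 68.1 and 71.0 FPKM in DKO Treg, against 361 and 306 FPKM in c-RelKO Treg, 522, 389 and 241 FPKM in p65KO Treg and 212 to 517 FPKM in WT Treg. No single-knockout library was below the WT libraries of runs 3 and 4, at 213 and 212 FPKM, and both DKO libraries were. The call was lost without any 1 of p65KO Treg replicate 2 (-2.43), either c-RelKO library (-2.36 and -2.59) or either DKO library (-2.45 and -2.50). The interactions of Swap70 (-2.30 ± 0.84, adjusted p = 0.165) and Gpr83 (-1.82 ± 0.83, adjusted p = 0.257) had the same sign and were not called. With run as a block Folr4, Swap70, Gpr83 and Ecm1 were called, among 38.4% of all genes, 12.4% with this sign.

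The stimulated single knockouts, 1 library each, borrowed their error from the groups with replicates, on the assumption that a lone library varies as those do. None of the 6 was called for p65 (1.01% of all genes called) or for c-Rel (0.347%), and none reached an unadjusted p under 0.05 with limma. Ecm1 was at 848 FPKM in stimulated p65KO Treg and 473 FPKM in stimulated c-RelKO Treg, against 470.0 and 591 FPKM in stimulated WT Treg. Swap70 was at 97.0 and 96.9 FPKM in these 2 knockout libraries, against 110.3 and 141 FPKM in stimulated WT Treg. Gpr83 was at 73.9 FPKM without p65 and 127 FPKM without c-Rel, against 108 and 116 FPKM in stimulated WT Treg.

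Stimulation gave no call among the 6 in WT Treg, none of which reached an unadjusted p under 0.05, and 0 of 11532 genes (0%) were called by limma there, with 311 genes at an unadjusted p under 0.05. Within runs 3 and 4 the ratio of stimulated to resting WT Treg lay between 0.719 and 1.61 for all 6 genes. Gpr83 was at 108 and 116 FPKM in stimulated WT Treg and at 116 and 137 FPKM in resting WT Treg of the same runs. Folr4 was at 215 and 205 FPKM when stimulated and at 213 and 212 FPKM at rest in those runs. In DKO Treg stimulation gave no call among the 6 either, with 9.99% of all genes called and none of the 6 at an unadjusted p under 0.05. With run as a block Folr4 was higher (0.37 ± 0.12, adjusted p = 0.0246) and Coro2a (-0.71 ± 0.25, adjusted p = 0.0382) and Ecm1 (-0.85 ± 0.31, adjusted p = 0.0455) were lower in stimulated than in resting DKO Treg, where 42.1% of all genes were called, 11.3% higher and 30.8% lower. Within runs 3 and 4 the ratios of stimulated to resting DKO Treg were 1.40 and 1.20 for Folr4, 0.551 and 0.662 for Coro2a and 0.713 and 0.423 for Ecm1.

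In WT Tconv, Gpr83 was at 5.27 and 7.14 FPKM when stimulated against 0.38 and 0.59 FPKM at rest, a difference of 2.27 ± 0.66. Low resting Tconv levels were part of the choice of the genes, which favours a positive difference here, so these values have no test. Within the 21 libraries both stimulated Tconv libraries lay below the lowest WT Treg library, at 40.8 FPKM, while the WT Treg control of the TAT-Cre set had 11.7 FPKM. Swap70 was at 9.63 and 13.6 FPKM in stimulated Tconv against 3.36 and 3.73 FPKM in resting Tconv. Folr4 was at 50.5 and 63.1 FPKM in stimulated Tconv against 26.5 and 26.7 FPKM in resting Tconv, and Ecm1 at 63.5 and 66.3 FPKM against 25.9 and 28.7 FPKM. Groups did not overlap for any of these 4 genes. Coro2a and Rln3 differed by -0.04 ± 0.46 and 0.10 ± 0.96.

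The response of WT Treg to stimulation minus that of WT Tconv contains, with a negative sign, the resting difference for which the genes were chosen, so it is also given with no test. It was -1.67 ± 0.87 for Gpr83, -1.62 ± 0.52 for Folr4, -0.28 ± 1.26 for Ecm1, -0.44 ± 0.88 for Swap70, -0.51 ± 0.60 for Coro2a and -0.82 ± 1.27 for Rln3. No difference of the double knockout's effect by stimulation was called for any of the 6 (0.971% of all genes called, none of the 6 at an unadjusted p under 0.05 with limma).

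The 6 genes fall into 2 patterns over the 17 Treg libraries. Gpr83, Swap70 and Ecm1 followed each other, with Pearson's r of log2(FPKM + 1) of 0.958 for Gpr83 and Swap70, 0.916 for Swap70 and Ecm1 and 0.904 for Gpr83 and Ecm1. Coro2a and Rln3 followed each other with r = 0.865, and Coro2a and Gpr83 gave r = -0.10. Folr4 lay between, with r from 0.28 to 0.57 to the other 5. These values are descriptions over libraries that share runs and groups, and the split of WT Treg by run enters all of them.

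**Figure D3:**
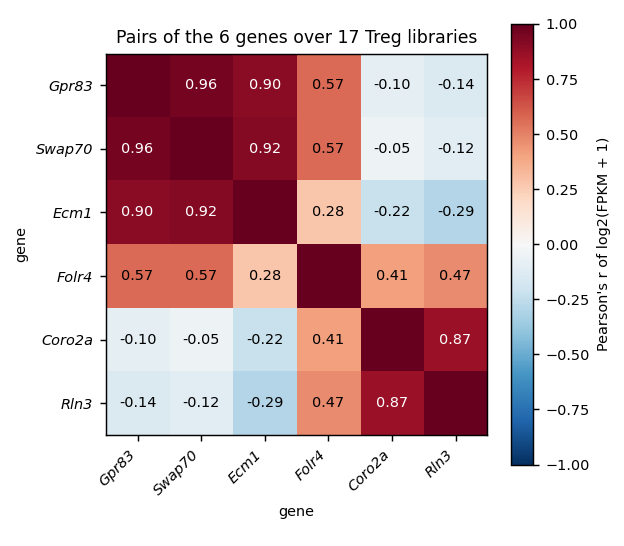
Pearson's r of log2(FPKM + 1) for each pair of the 6 genes over the 17 Treg libraries outside the TAT-Cre set. Gpr83, Swap70 and Ecm1 form 1 block with r from 0.90 to 0.96, and Coro2a and Rln3 form another with r of 0.87.

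Over all 21 libraries, the genes most like each of the 6 by Pearson's r among genes tested were named by the same measure. For Gpr83 they were Swap70 (0.950), Foxp3 (0.944) and Lrrc32 (0.937), which encodes GARP, the surface anchor of latent TGF-beta on Treg. For Swap70 they were Dnahc7a (0.954), Sdc4 (0.952) and Gpr83, and for Ecm1 they were Elovl6 (0.960), Swap70 (0.948) and Usp27x (0.945). Coro2a came with Ebi3 (0.966), which encodes a subunit of IL-35 and IL-27, then Rln3 (0.947) and Aplp1 (0.939). Rln3 came with Coro2a, Eci1 (0.947) and Jazf1 (0.943), and Folr4 with Wls (0.938), Actg2 (0.929) and Itgae (0.913), the integrin chain CD103. All 6 are low in Tconv, and those libraries enter each of these values.

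Foxp3 itself was at 8.01 and 21.2 FPKM in DKO Treg, 136 and 254 FPKM in c-RelKO Treg and 139.7 to 282 FPKM in p65KO Treg, against 129 to 351 FPKM in WT Treg and 0.54 and 0.93 FPKM in WT Tconv. It fell by 4.09 ± 0.43 in DKO Treg against WT Treg (adjusted p = 1.8e-05), without overlap. DKO Treg and Tconv thus form clusters of their own, with 4 libraries each, and were left out of the relation of each gene to Foxp3. That relation was computed over the 13 libraries of WT, p65KO and c-RelKO Treg, resting or stimulated, with permutation p-values adjusted over the 6 genes. The permutations shuffled libraries freely across runs and groups. Pooled p-values therefore cannot separate a relation to Foxp3 from the split by run.

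Pooled over runs, 5 of the 6 genes passed the permutation test against Foxp3 in these 13 libraries, 3 with a positive and 2 with a negative r. Swap70 had r = 0.883 (Spearman's rho 0.885, adjusted permutation p = 0.00108), Gpr83 had r = 0.782 (rho 0.780, adjusted permutation p = 0.00522) and Ecm1 had r = 0.773 (rho 0.670, adjusted permutation p = 0.00564). Folr4 had r = -0.856 (rho -0.852, adjusted permutation p = 0.00156) and Rln3 had r = -0.786 (rho -0.835, adjusted permutation p = 0.00412). Coro2a had r = -0.497 (rho -0.401, adjusted permutation p = 0.0906). Raw permutation p-values ran from 0.00018 for Swap70 to 0.0906 for Coro2a.

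Without the 2 libraries farthest from the median of Foxp3, WT Treg replicate 1 and c-RelKO Treg replicate 1, r was 0.776 for Swap70, 0.705 for Gpr83, 0.627 for Ecm1, -0.845 for Folr4, -0.904 for Rln3 and -0.631 for Coro2a. Ecm1 then had an adjusted permutation p of 0.0507, so it no longer passed without those libraries. Within run 4, the single run with 6 of these libraries, no relation passed an exact permutation test: r was 0.778 for Gpr83 (exact p = 0.0889), 0.441 for Swap70, 0.0755 for Ecm1, -0.518 for Folr4, -0.610 for Rln3 and 0.239 for Coro2a, the last with its sign reversed. With 6 libraries the test detects only strong relations: the r of Gpr83 was close to its pooled value, those of Swap70, Folr4 and Rln3 kept their sign at smaller size, and that of Ecm1 was near 0. The other runs have too few of these libraries for a value. Foxp3 was also low in runs 1 and 2 (129 and 210.5 FPKM in WT Treg), where Folr4, Coro2a and Rln3 were high.

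**Figure D4:**
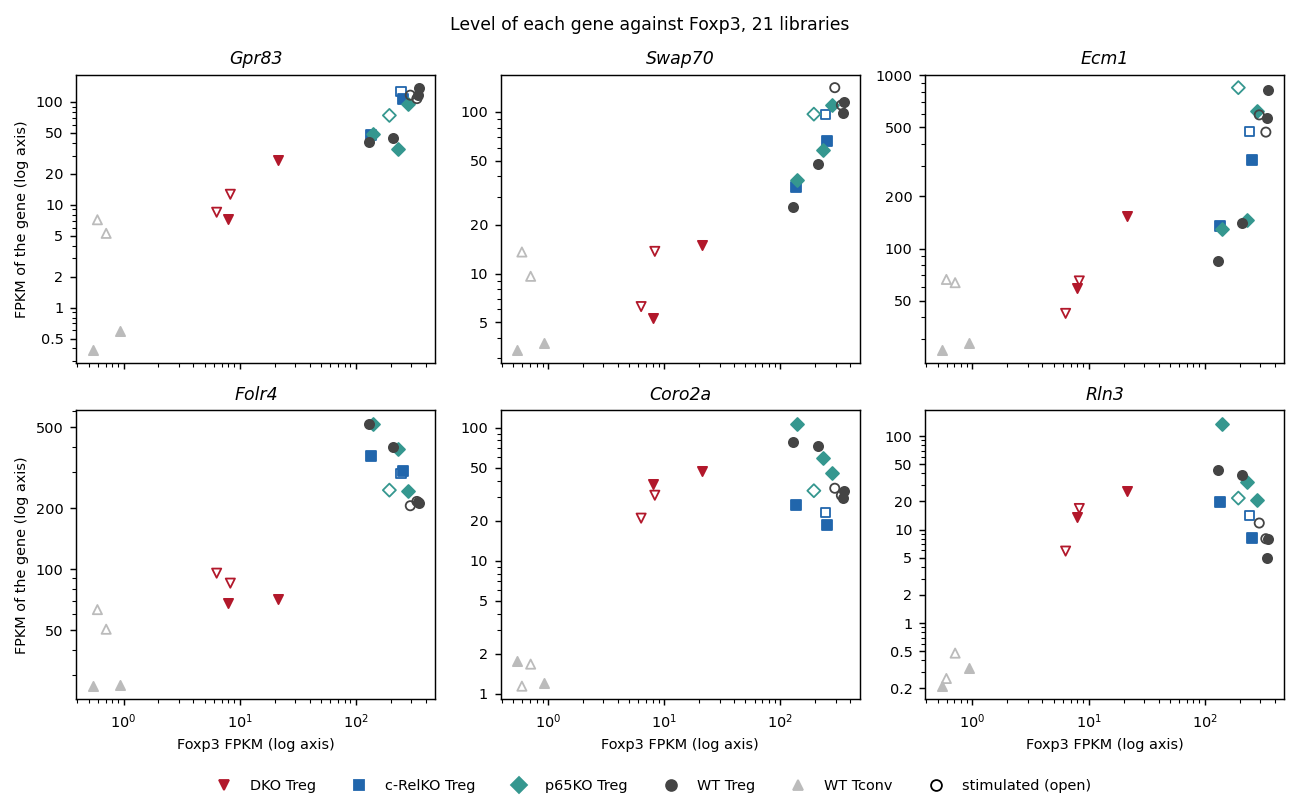
Level of each of the 6 genes against Foxp3, both in FPKM on log axes, in 21 libraries by genotype and cell type, with open symbols for stimulated cells. DKO Treg, at 6.34 to 21.2 FPKM of Foxp3, keep Coro2a and Rln3 near the levels of the other Treg. Gpr83, Swap70 and Folr4 are lower there than in all other Treg. For Ecm1 the resting DKO Treg library at 154 FPKM lies among the other Treg.

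In DKO Treg the low Foxp3 went with different levels of the 6 genes. Coro2a and Rln3 lay within the WT Treg range in both DKO libraries, and Gpr83, Swap70 and Folr4 lay below it. The library with more Foxp3, DKO Treg replicate 2, also had more Gpr83 (27.1 and 7.33 FPKM in replicates 2 and 1), Swap70 (15.05 and 5.30 FPKM) and Ecm1 (154 and 59.3 FPKM), and it had more Rln3 (26.2 and 13.8 FPKM) and Coro2a (46.9 and 37.9 FPKM) too. Folr4 was nearly equal in both. With 2 libraries this is a description.

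Known Treg genes give a measure for these changes. Of 22 such genes, all tested, 7 were lower, 4 higher and 11 not called in resting DKO Treg against WT Treg, with a median difference of -0.445 beside 0.06 over all genes. The lowest p belonged to Ikzf2 (-2.30 ± 0.17), which encodes Helios, then Foxp3, Cd83 (-4.77 ± 0.63), a surface protein, and Entpd1 (1.17 ± 0.22), which encodes the ectonucleotidase CD39 and was higher. The 6 genes had a median difference of -1.82, and their choice by high WT Treg levels favours a negative value. After stimulation 7 of the 22 were lower and 3 higher in DKO Treg, led by Foxp3 (-5.25 ± 0.50), Ikzf2 (-1.43 ± 0.20), Lrrc32 (-5.32 ± 0.83) and Ikzf4 (-2.87 ± 0.45). In c-RelKO Treg 1 of the 22, Ikzf2 (-1.24 ± 0.17), was called lower, and in p65KO Treg none was called by limma, with 5 at an unadjusted p under 0.05. With run as a block 10 of the 22 were lower and 2 higher in c-RelKO Treg, where 41.6% of all genes were called, and 2 were lower and 6 higher in p65KO Treg, where 8.82% were called.

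Relatives of the 6 genes were mostly silent in these cells. The 21 listed were coronins, folate carriers and receptors, relaxin family ligands and receptors, the Swap70 homologue Def6, Ecm2 and Pcsk1n. Of these, 9 were expressed enough to be tested. In DKO Treg against WT Treg, where 33% of all genes were called, 2 of the 9 were called, both higher. They were Coro1c (1.10 ± 0.15, adjusted p = 0.000144), another coronin, and Def6 (0.61 ± 0.19, adjusted p = 0.0238). Def6 and Swap70 thus differed in direction. In stimulated WT Tconv against resting WT Tconv, where 11.9% of all genes were called and 6.69% higher, the folate carrier gene Slc19a1 (2.04 ± 0.31, adjusted p = 0.001004) and the relaxin relative Insl6 (2.20 ± 0.40, adjusted p = 0.00291) were higher. None of the 9 was called in p65KO or c-RelKO Treg in the pooled fit, with 0 and 2 at an unadjusted p under 0.05.

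At rest the neighbours of Gpr83 and Folr4 were not lower with them in DKO Treg. Mre11a, beyond Gpr83, was higher by 0.43 ± 0.11 in DKO Treg (adjusted p = 0.00965), and Panx1, beyond Folr4, differed by -0.03 ± 0.15 (adjusted p = 0.889). After stimulation Panx1 was lower in DKO Treg (-0.54 ± 0.18, adjusted p = 0.0313), as Folr4 was, and Mre11a differed by 0.15 ± 0.13 (adjusted p = 0.422). Next to Ecm1, Tars2 (-0.86 ± 0.24, adjusted p = 0.0134) and Adamtsl4 (-1.24 ± 0.32, adjusted p = 0.00865) were both lower. Il27ra, next to Rln3, differed by -1.23 ± 0.49 (adjusted p = 0.0685), and Rfx1, on its other side, was lower (-0.80 ± 0.25, adjusted p = 0.0246). Beside Swap70 in resting DKO Treg, Wee1 was higher (1.73 ± 0.21, adjusted p = 4.36e-05) and Sbf2 lower (-0.77 ± 0.17, adjusted p = 0.00421). Beside Coro2a, Tbc1d2 was higher (1.33 ± 0.26, adjusted p = 0.00147) and Trim14 differed by -0.28 ± 0.47 (adjusted p = 0.686).

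The TAT-Cre set has 1 library per group, so its values have no test. Foxp3 was at 266 FPKM in the Treg library labelled FoxP3 del, above the 86.7 FPKM of its WT Treg control, and so shows no loss. Which part of the gene was deleted is not given, so a level per gene does not check that label. Where NFkB del was the label, Rel stood at 38.7 FPKM, against 171 FPKM in the WT Treg control, and Rela at 124 FPKM, against 125 FPKM. That library also had more erythroid (1491 against 65.2 FPKM) and myeloid (92.4 against 14.9 FPKM) marker transcripts than the control. The library labelled FoxP3 del had more myeloid (112 against 14.9 FPKM) and B cell (72.0 against 33.8 FPKM) marker transcripts than the control. Its erythroid sum was 53.9 FPKM. The part of these transcripts in the values of the libraries was not tested. Swap70 was at 91.7 FPKM in the library labelled NFkB del and 135 FPKM in the one labelled FoxP3 del, against 151 FPKM in the WT Treg control and 17.4 FPKM in the WT Tconv control.

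Coro2a was at 19.2 FPKM in the library labelled NFkB del and 53.7 FPKM in the one labelled FoxP3 del, against 37.6 FPKM in the WT Treg control and 2.82 FPKM in the WT Tconv control. Rln3 was at 25.9 and 36.7 FPKM in these 2 libraries, against 21.3 FPKM in the WT Treg control, and was listed at 0 in the WT Tconv control. Folr4 was at 101 and 94.6 FPKM in these 2, against 103 FPKM in the WT Treg control and 37.1 FPKM in the WT Tconv control. Gpr83, at 10.7 and 11.3 FPKM against 11.7 FPKM in the WT Treg control and 3.34 FPKM in the WT Tconv control, and Ecm1, at 91.3 and 78.5 FPKM against 113 and 49.3 FPKM in the same controls, lay lower in the WT Treg control than in stimulated WT Treg of the main set. So did Folr4, at 103 FPKM in the control against 215 and 205 FPKM in the main set, and Foxp3, at 86.7 FPKM against 336 and 295 FPKM. The stimulation time of the TAT-Cre set is not given and may differ from the 3 h of the main set.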

How the data were processed

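The authors deposited 1 gene table per library with FPKM values and confidence bounds; per the file headers these are Cufflinks gene tracking files, and reads had gone through bcl2fastq and TopHat, with mm9 as the build, per the submitters' processing notes (no versions given). Entries not marked OK in some file were left out, and values of symbols on several entries were summed. How Cufflinks divided shared reads is not recorded in the files. Depth was implied from the deposited bounds, and 70.5% to 74.4% of implied numbers under 15 lay within 0.02 of a whole number, so depths are estimates. Groups came from the labels. Nothing there says that replicates came from separate animals, so p-values measure the spread between these samples, which may be technical.

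Log2(FPKM + 1) values were fitted with limma 3.58.1 in R 4.3.3, with limma's mean-variance trend, a separate mean for every group and 11 residual degrees of freedom, and Benjamini-Hochberg adjustment per comparison. The log2 scale understates changes of low genes. The fit was tested on simulated data. For Foxp3, Pearson and Spearman permutation tests were used (100000 resamples, exact within run 4). Alternatives were a pseudocount of 0.1, no filter, a filter of 5 FPKM, size factors, the replicate number or the run as a block, the groups of a comparison alone and leaving out each replicate. Same-numbered p65KO and WT Treg deviated together in all 3 pairs (r from 0.452 to 0.821), and replicates 1 and 2 also share runs 1 and 2. p65KO Treg replicate 3 deviated more closely with WT Treg replicate 4, of its own run (r = 0.797), than with WT Treg replicate 3 (r = 0.452). Replicate numbers therefore do not pair these samples apart from the run. Deviations correlated by 0.432 on average within a run (51 pairs).

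The rule for named genes took the 6 genes, Foxp3, Rela and Rel, up to 4 members of each list by smallest p and the 3 genes most like each of the 6. Other neighbours and markers were named after their values were seen. The 6 genes and all lists were chosen with earlier results of these data known. Tests against WT Tconv levels, though planned, are not given for the 6 genes, because those levels chose them. Tests against WT Treg are given, although high WT Treg levels also entered the choice and favour negative differences.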

Additional observations from a re-analysis of the deposited data

Results flagged for a closer look

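The interaction of p65 and c-Rel loss on Folr4 in resting Treg differed from 0 (-2.48 ± 0.50, adjusted p = 0.0254 with limma). The effect of losing p65 was therefore not the same with and without c-Rel: Folr4 was at 68.1 and 71.0 FPKM in DKO Treg against 361 and 306 FPKM in c-RelKO Treg, and at 522, 389 and 241 FPKM in p65KO Treg against 517, 400.4, 213 and 212 FPKM in WT Treg. With run as a block the interaction was -2.31 ± 0.15 (adjusted p = 6.38e-06). The summed B cell, myeloid and erythroid markers were each highest in c-RelKO Treg replicate 2 (246, 1623 and 17722 FPKM), and their part in the result was not tested. Without that library the interaction was -2.59 (adjusted p = 0.0791), and it also lost its call without p65KO Treg replicate 2, c-RelKO Treg replicate 1 or either DKO Treg library. Over all alternatives that left out 1 library it ran from -2.77 to -2.22.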

How the results depend on the processing

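The number of the 6 genes called is given here for 5 comparisons. They are p65KO, c-RelKO and DKO Treg against WT Treg, stimulated DKO against stimulated WT Treg and WT Treg stim against WT Treg. In these it kept within 1.5 times its pooled value under another pseudocount, no filter, a stricter filter, size factors and the groups of a comparison alone. The other comparisons were recomputed too, and their counts under these settings are not given here. The number called moved with blocks. For c-RelKO Treg against WT Treg it was 0, and 3 with the run block, 2 with the replicate block and 4 with the run block without the 3 libraries that stand apart. For DKO Treg against WT Treg it was 3, and 5 with the run block with or without those libraries. For WT Treg stim against WT Treg it was 0, and 5 with the replicate block, whose numbers join libraries of different runs there (0 with the run block). The relation to Foxp3 passed its test for 5 genes over 13 libraries and for 0 over the 6 libraries of run 4, where r stayed close to its pooled value for Gpr83 and fewer samples limit the test. Leaving out single libraries gave 1 to 4 calls for DKO Treg against WT Treg, 2 for its stimulated form, 0 to 1 for c-RelKO Treg and 0 for p65KO Treg and for stimulation of WT Treg.

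Direction reversed with the replicate block for Folr4 (-0.42), Swap70 (0.39) and Ecm1 (0.91) in c-RelKO Treg against WT Treg, for Rln3 in DKO Treg against WT Treg (-0.87) and for Ecm1 in the interaction of cell type and stimulation (1.01). In these comparisons numbers 1 and 2 join libraries of different runs, and same-numbered DKO and WT Treg deviated apart (r of -0.131 and -0.116 for 2 pairs), so the samples share only a number. With the run block Rln3 in DKO Treg against p65KO Treg reversed to 0.33, and to 0.61 without the 3 libraries that stand apart; Coro2a against Foxp3 reversed to r = 0.239 within run 4. Leaving out single libraries, which fixed no direction for these uncalled values, gave ranges of -0.088 to 0.34 for Folr4, -0.82 to 0.11 for Swap70 and -1.004 to 0.25 for Ecm1 in c-RelKO Treg against WT Treg, -0.33 to 0.64 for Rln3 in DKO Treg against WT Treg and -0.84 to 0.25 for Ecm1 in the interaction of cell type and stimulation. The cause was not tested. Counts over all genes moved by more than 1.5 times with the run block: 1017 against 5 for p65KO Treg, 4803 against 1223 for c-RelKO Treg, 7062 against 3803 for DKO Treg and 7230 against 3774 for stimulated DKO Treg. With the groups of the comparison alone they were 0 for p65KO Treg, 71 for c-RelKO Treg and 1724 for DKO Treg, and with the replicate block 3270 for c-RelKO Treg and 3119 for stimulation of WT Treg. Size factors made 35.8% of the c-RelKO calls higher, against 15.3% in the main scaling, and moved the median of all genes to 0.03 from -0.13. Without the 3 libraries that stand apart Ecm1 was called in DKO Treg against WT Treg. Depth limits Rln3 in WT Tconv, where 1 and 5 implied fragments lie behind the levels.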
